A study of Mus musculus with 64 samples.

Results

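The genes described here are the 77 autosomal protein-coding genes named for proteins of the cytosolic ribosome, out of 20661 autosomal protein-coding genes in the RefSeq table. They were chosen by symbol: Rpl or Rps followed by a number and at most 1 letter, or Rplp0, Rplp1, Rplp2 and Rpsa. The group was put forward with peak cover in these same libraries in view, so all values of cover for the group as a whole are a description and are given beside those of all genes. The set holds 44 large-subunit genes, 3 stalk genes and 30 small-subunit genes on 18 chromosomes, and 4 X-linked genes that match the symbols were left out. Each region was the gene with 2000 bases on each side. In 40 of the 77 (51.9%) the region also holds part of another protein-coding gene, and cover there was not assigned to one gene or the other. The genes span 592 to 11774 bases, with a median of 3183 bases.

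The cells were splenic CD23+ B cells of female F1 mus x cast hybrids, bred from C57BL/6 mothers with a heterozygous Xist deletion and castaneus fathers. They were unstimulated (0 h) or cultured with 1 µM CpG, DNA that stimulates TLR9, for 12 h or 24 h. The labels do not say which F1 animals inherited the deletion. CUT&RUN was run with 6 antibodies: an antibody brings a nuclease to its target in permeable cells, and the DNA released around the target is sequenced. There were 3 libraries at each time with H3K27ac, with Ring1B and with Suz12, and 4 at each time with H3K9me3. With H2AK119Ub there were 4 at 0 h, 3 at 12 h and 5 at 24 h, and with H3K27me3 there were 3, 3 and 4. The peaks in each of the 61 libraries derive from the castaneus (Cast) allele, so all values concern that allele alone. The 3 IgG control samples were not analysed here, so signal without a specific antibody was not measured at these genes.

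Ribosomal proteins assemble with ribosomal RNA into the large subunit, which joins amino acids, and the small subunit, which reads the mRNA. Their genes are among the most actively transcribed in growing cells, and their mRNAs typically begin with a C and a run of pyrimidines, the terminal oligopyrimidine (TOP) tract, through which mTOR signalling controls their translation. H3K27ac marks active promoters and enhancers. PRC2, which holds Suz12, lays down H3K27me3, and PRC1, which holds Ring1B, lays down H2AK119Ub, both tied to repression, while H3K9me3 marks heterochromatin.

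Promoter sequences from the RefSeq table of build GRCm38.p6 (mm10) were available for 57 of the 77 genes. 5 are shown from 230 bases before to 20 bases after the start site, since the results below turn on these genes. Rps12 and Rpl14 were called higher at 24 h than at 0 h for H3K27ac, Rps18 for H2AK119Ub and Rpl26 for H3K27me3. The H3K27me3 block at Rpl26 ended just inside the gene, and Rpl10l was the only gene of the 77 with an H3K9me3 peak. These calls concern listed peaks and depend on the processing, as given below. Capitals mark the ETS core CCGGAA on either strand, and runs of 7 or more pyrimidines within 25 bases before or 20 bases after the start.
Rps12, chr10:23787190-23787439, minus strand: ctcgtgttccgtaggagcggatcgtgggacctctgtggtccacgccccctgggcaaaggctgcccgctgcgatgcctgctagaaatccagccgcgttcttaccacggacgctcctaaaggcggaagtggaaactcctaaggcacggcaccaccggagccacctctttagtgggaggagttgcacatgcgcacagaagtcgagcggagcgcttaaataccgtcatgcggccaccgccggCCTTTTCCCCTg
Rpl14, chr9:120571287-120571536, plus strand: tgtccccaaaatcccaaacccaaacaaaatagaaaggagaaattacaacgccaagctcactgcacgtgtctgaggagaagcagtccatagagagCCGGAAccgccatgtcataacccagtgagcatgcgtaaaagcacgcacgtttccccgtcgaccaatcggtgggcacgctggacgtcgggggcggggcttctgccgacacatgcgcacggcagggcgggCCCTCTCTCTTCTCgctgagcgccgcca
Rps18, chr17:33955646-33955895, minus strand: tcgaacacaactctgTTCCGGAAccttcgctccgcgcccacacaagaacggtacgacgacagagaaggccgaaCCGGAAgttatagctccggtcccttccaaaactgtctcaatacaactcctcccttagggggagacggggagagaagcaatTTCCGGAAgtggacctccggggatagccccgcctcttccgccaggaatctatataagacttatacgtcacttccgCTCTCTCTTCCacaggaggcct
Rpl26, chr11:68901336-68901585, plus strand: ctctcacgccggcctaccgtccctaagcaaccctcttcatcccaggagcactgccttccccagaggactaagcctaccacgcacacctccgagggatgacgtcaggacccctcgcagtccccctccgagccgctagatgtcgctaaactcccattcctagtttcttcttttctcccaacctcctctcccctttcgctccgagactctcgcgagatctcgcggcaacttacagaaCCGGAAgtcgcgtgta
Rpl10l, chr12:66284382-66284631, minus strand: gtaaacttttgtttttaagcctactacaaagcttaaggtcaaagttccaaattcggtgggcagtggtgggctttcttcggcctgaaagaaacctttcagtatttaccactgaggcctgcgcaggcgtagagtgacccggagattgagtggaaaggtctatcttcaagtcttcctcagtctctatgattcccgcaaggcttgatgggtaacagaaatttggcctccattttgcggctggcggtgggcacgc
The first 4 windows held 22, 21, 18 and 19 CpG pairs in the order given, and that of Rpl10l held 9. Rps12, Rpl14 and Rps18 each carry a pyrimidine run near the start, of 11, 14 and 11 bases. By the table's start sites, Rpl14 and Rps18 have the TOP start described below and Rps12 does not, its run lying further into the transcript. Rpl26 and Rpl10l have none of 7 bases.

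Over the full promoter entries of 300 bases, the ETS core CCGGAA, searched on both strands, was present in 49.1% of the ribosomal protein promoters, 56.5% of 69 mitochondrial ribosomal protein promoters and 19.5% of 16456 autosomal protein-coding promoters. The element TCTCGCGA, like the other motifs below that are given by letters, was also searched on both strands and was in 15.8%, 1.45% and 1.48% of these promoters in the same order, and its 9 ribosomal protein genes include Rps28, Rps19 and Rpl26. A start of C followed by 4 more pyrimidines, as a TOP mRNA has, was found at 22.8%, 0% and 2.17%. A run of 7 pyrimidines within 25 bases on either side of the start was found at 59.6%, 31.9% and 28.7%. The GC box GGGCGG was in 56.1%, 49.3% and 47.3%, and TATAAA in 8.77%, 5.8% and 13.5%. A run of 7 pyrimidines can include the TOP start, and none of these matches is evidence that a factor binds.

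At 12 and 24 h, H3K27ac covered more of the ribosomal protein gene regions than any of the other 5 antibodies did. The number of the 77 genes with an H3K27ac peak was 3, 28 and 36 in the 0 h libraries, 65, 70 and 60 in the 12 h libraries, and 71, 71 and 69 in the 24 h libraries. On average peaks covered 19.7 ± 15.6% of a region in 0 h cells, with 59.6 ± 11.0% after 12 h and 67.3 ± 8.99% after 24 h (SD, n = 3 libraries each). Over all autosomal protein-coding genes the same means were 3.81 ± 2.20%, 9.07 ± 3.66% and 10.0 ± 4.00%. Region lengths were not matched in this or later comparisons with all genes, and a peak of a given width fills more of a short region. At 24 h, 69 of the 77 genes (all 30 small-subunit genes, 36 large-subunit genes and 3 stalk genes) had a peak in every library, against 24.5% of all protein-coding genes. At 0 h 3 of the genes had a peak in every library, among them Rps15a and Rps19 of the small subunit. The 0 h libraries were unequal: replicate 1 listed 1450 peaks and replicates 2 and 3 listed 4748 and 5277.

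**Figure D1:**
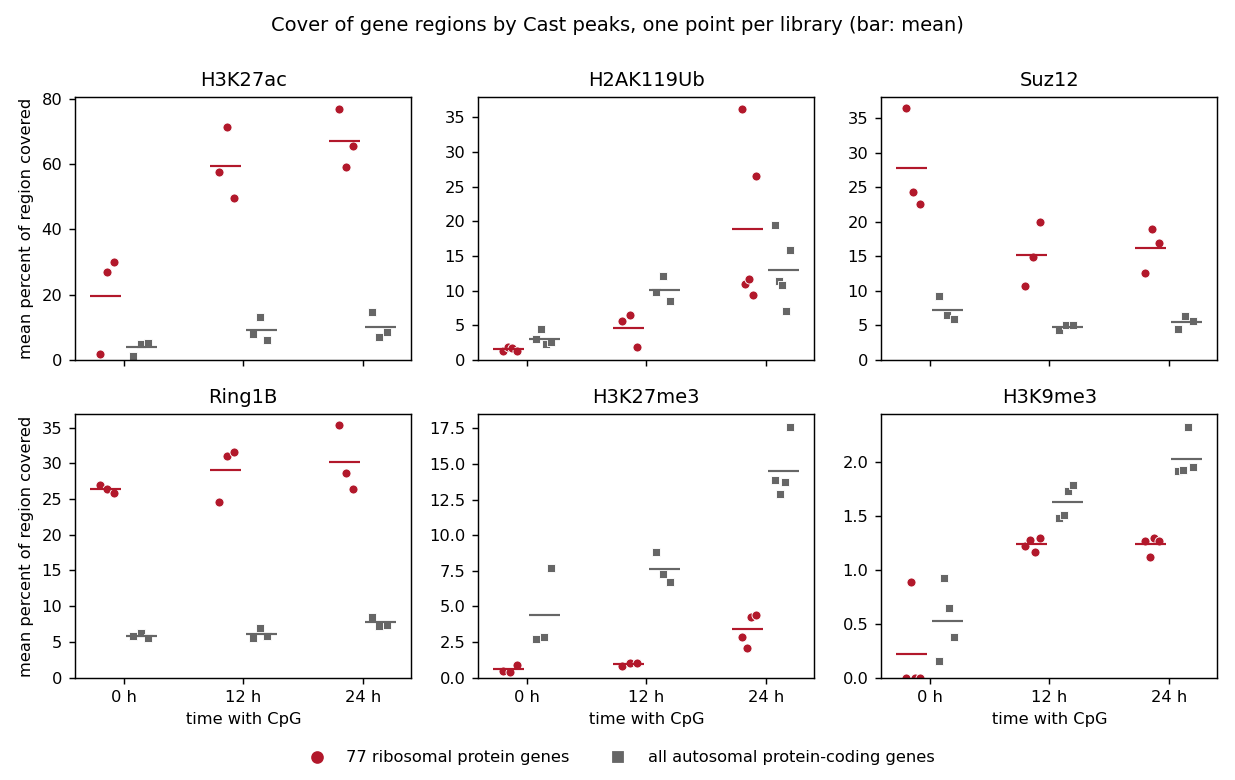
Mean percent of gene regions covered by Cast peaks (vertical axes, own scale per antibody, from 0) at each time with CpG, one point per library. Circles on the left are the 77 ribosomal protein genes and squares all autosomal protein-coding genes, with bars for the mean. Ribosomal protein genes lie above all genes for H3K27ac, Suz12 and Ring1B in every library, and below all genes for H3K27me3 in every library.

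The listed peaks also covered more of the genome at the later times, so the mean cover of each library was also divided by the percent of the autosomes its peaks take up. For H3K27ac this relative cover was 2.64, 13.7 and 14.3 at 0 h, 19.04, 14.3 and 20.8 at 12 h, and 15.05, 28.2 and 21.4 at 24 h. All 24 h values lay above all 0 h values on this scale too, the closest pair being 15.05 and 14.3. Over all protein-coding genes it was 1.926, 2.487 and 2.495 at 0 h and 2.846, 3.314 and 2.804 at 24 h, with a 24 h mean of 2.99. The times were thus separate over all genes too, so the separation is not particular to ribosomal protein genes.

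Of the 77 genes, 71 had an H3K27ac peak in at least 3 libraries and entered the limma test over all genes. In it 14 ribosomal protein genes changed over the 3 times at an adjusted p under 0.05, against 1.46% of all 9341 protein-coding and lncRNA genes tested. The same 14 were higher at 24 h than at 0 h (background 1.45%) and higher at 12 h than at 0 h (background 1.25%), and none was lower. They comprise 8 large-subunit genes (Rpl3, Rpl10a, Rpl13, Rpl14, Rpl23a, Rpl29, Rpl35a and Rpl36) and 6 small-subunit genes (Rps3, Rps7, Rps10, Rps12, Rps20 and Rps21). The regions of Rpl10a, Rpl23a, Rpl29, Rpl35a, Rpl36 and Rps21 also hold part of another protein-coding gene. Of the 14, 13 had no peak in any 0 h library, and Rpl23a had 0, 16.1 and 9.40% there. Every 24 h library lay above every 0 h library for 42 of the 71 genes (background 29.8%), and every 12 h library lay above every 0 h library for 34 (background 25.3%). A gene that is at 0 in the 0 h libraries passes the filter only through the later times. The calls rest on few libraries: no ribosomal protein gene passed without 0 h replicate 2, 0 h replicate 3, 12 h replicate 1 or 24 h replicate 3, 2 passed without 0 h replicate 1, and 21 passed without 12 h replicate 2. None passed as relative cover, or with the replicate number as a block, and 2 passed with lists of equal length.

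Rps12, a small-subunit protein, and Rpl14, a large-subunit protein, changed with the smallest adjusted p. Rps12 had no peak in the 3 libraries at 0 h, and was covered over 91.7, 93.7 and 89.0% of its region at 12 h and 100, 85.4 and 89.4% at 24 h. Rpl14 again had 0 in all 0 h libraries, then 88.0, 89.7 and 87.8% at 12 h and 87.1, 89.3 and 91.2% at 24 h. For both genes the 12 h and 24 h libraries overlapped, and all lay above 0 h. The difference of 24 h minus 0 h was 91.6 ± 10.1 percentage points for Rps12 and 89.2 ± 9.72 for Rpl14 (SE of the fit, limma adjusted p = 0.0145 for both).

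Rpl3, a large-subunit protein near the peptidyl transferase centre, had the largest difference of the 14. It had no peak at 0 h, 37.6, 93.0 and 52.7% at 12 h and 94.4, 89.9 and 95.3% at 24 h, a difference of 93.2 ± 14.4 points (SE, limma adjusted p = 0.0378). Rps21 of the small subunit had none at 0 h, 81.0, 100 and 48.4% at 12 h and 100, 80.1 and 81.0% at 24 h. Both genes varied most at 12 h. Rps7 of the small subunit had none at 0 h, 57.7, 57.8 and 45.04% at 12 h and 91.0, 77.8 and 90.3% at 24 h. Rps7 and Rps10 were the 2 genes also called higher at 24 h than at 12 h (background 0.289%), and their 24 h libraries lay above all 12 h libraries. Rps10, also of the small subunit, had none at 0 h, 45.8, 68.6 and 41.0% at 12 h and 82.2, 85.3 and 87.6% at 24 h.

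**Figure D2:**
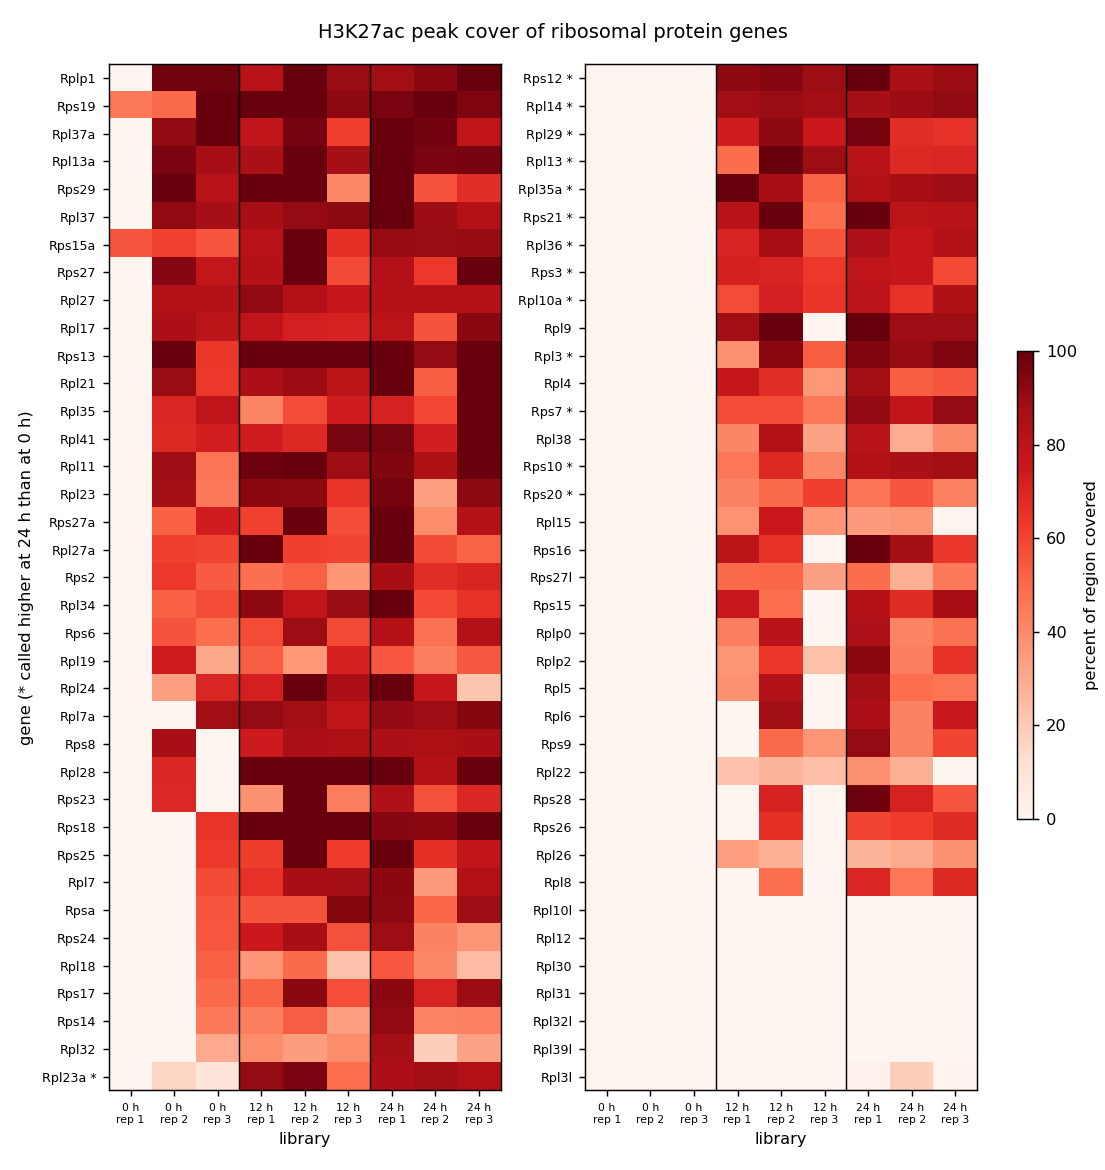
Percent of each region covered by H3K27ac peaks (colour, 0 to 100) for 74 of the 77 genes (rows, by mean at 0 h, continued in the right panel) in the 9 libraries (columns, 0, 12 and 24 h). Stars mark the 14 genes called higher at 24 h than at 0 h. In 0 h replicate 1 Rps15a and Rps19 are the only genes drawn with a peak, and the 6 genes without any H3K27ac peak are near the foot of the right panel.

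Rps19 and Rps13 of the small subunit were among the 3 genes with the highest mean over the 9 libraries and were covered early. Rps19, whose loss of one copy causes Diamond-Blackfan anaemia in humans, had 95.8, 100 and 95.1% at 24 h against 45, 50.0 and 100% at 0 h, and the groups overlap. Rps13 had 100, 90.4 and 100% at 24 h and 0, 100 and 63.8% at 0 h. Neither gene passed the test.

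The stalk proteins Rplp0, Rplp1 and Rplp2, which recruit elongation factors to the ribosome, and Rpsa, a small-subunit protein also known as a laminin receptor, did not pass. Rplp0 had 84.2, 41.6 and 47.3% at 24 h against 0 in all 0 h libraries (limma adjusted p = 0.214). Rplp2 had 92.4, 43.6 and 65.6% at 24 h against 0 in all 0 h libraries (limma adjusted p = 0.106). Rplp1 had 88.0, 92.9 and 100% at 24 h and 0, 97.8 and 97.9% at 0 h. Rpsa had 91.6, 50.6 and 88.9% at 24 h and 0, 0 and 55.1% at 0 h. Rplp0 and Rplp2 thus had separate groups, while Rplp1 and Rpsa were already covered in some 0 h libraries.

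Among the 77, 30 genes had no peak in any 0 h library and a peak in every 24 h library. No share over all genes stands beside this count, so nothing particular to these genes is read from it. At the other end, 6 genes had no H3K27ac peak in any library: Rpl31, Rpl12, Rpl32l, Rpl10l, Rpl30 and Rpl39l. Of these 6, 4 genes, Rpl31, Rpl12, Rpl30 and Rpl39l, had no peak of any antibody in the 61 libraries, as did 11.5% of all autosomal protein-coding genes. The nearest peak of any library lay 53471, 50497, 42065 and 7421 bases from these 4 genes. Whether reads can be assigned to the Cast allele there was not tested, and no chromatin state is read from these 4 genes.

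Peaks of H3K27ac lay mostly downstream of the start. At 24 h, 78.9 to 86.0% of the 57 start sites were covered, against 1.75, 31.6 and 40.4% in the 0 h libraries. Among all 16456 start sites, between 20.0 and 33.6% were covered at 24 h and between 2.12 and 11.0% at 0 h. At 24 h a peak over a start reached a median of 1239 to 1438 bases upstream and 3658 to 7376 bases downstream, depending on the library. Averaged over libraries, 21.6% of the start sites had H3K27ac 2000 bases upstream at 24 h and 78.9% had it 2000 bases downstream. By highest signal, these peaks stood at a median percentile of 64.0 to 84.2 within their own list at 24 h.

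**Figure D3:**
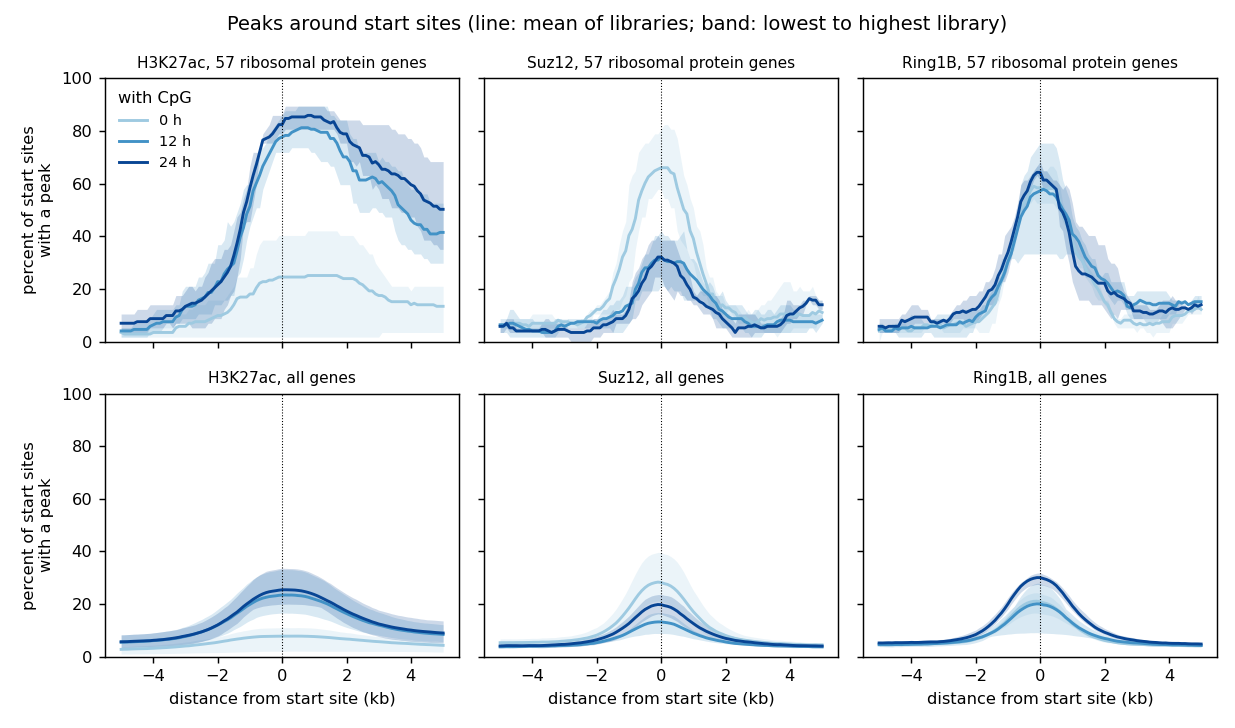
Percent of start sites with a peak (vertical axes, 0 to 100) at each distance from the start (horizontal axes, kb) for H3K27ac, Suz12 and Ring1B, with 57 ribosomal protein genes above and all 16456 genes below. Lines are means of the 3 libraries at 0, 12 and 24 h, and bands run from the lowest to the highest library. H3K27ac extends into the gene, whereas Suz12 and Ring1B are centred on the start.

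Suz12 and Ring1B were measured in lists cut at a set fraction of the strongest regions, so a change shows a place in the ranking and not the amount bound. Suz12 peaks were present at 68, 56 and 52 of the 77 genes at 0 h, at 22, 39 and 39 at 12 h and at 41, 49 and 43 at 24 h. Peaks covered on average 27.8 ± 7.59% of a region in 0 h cells, with 15.2 ± 4.60% after 12 h and 16.2 ± 3.27% after 24 h (SD, n = 3 libraries each). Over all protein-coding genes it was 7.20 ± 1.78%, 4.82 ± 0.418% and 5.52 ± 0.986%. Of the ribosomal protein start sites, 24.6 to 38.6% lay in a Suz12 peak at 24 h, against 57.9 to 80.7% at 0 h. These ranges do not overlap. Over all start sites they do, with 16.2 to 23.6% at 24 h and 21.0 to 39.6% at 0 h. The median difference over the 77 genes was -11.4 points, against 0 over all genes.

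With limma no gene changed for Suz12 at an adjusted p under 0.05, neither among the 67 ribosomal protein genes tested nor among all 18046 genes (background 0%). At an unadjusted p under 0.05 there were 9 of the 67 (background 8.76%). In 12 of the 67 every 24 h library lay below every 0 h library (background 9.45%). Rps21 was among the 3 genes with the highest mean. It had 47.7, 35.7 and 31.7% at 24 h and 52.7, 36.0 and 45.6% at 0 h, and the groups overlap.

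Ring1B peaks were present at 49, 57 and 60 of the 77 genes at 0 h, at 33, 57 and 66 at 12 h and at 61, 59 and 59 at 24 h. The mean cover was 26.4 ± 0.623%, 29.1 ± 3.89% and 30.2 ± 4.65%, against 5.89 ± 0.334%, 6.12 ± 0.697% and 7.74 ± 0.702% over all genes (SD, n = 3 libraries at each time). With limma none of the 68 ribosomal protein genes tested passed, against 0.085% of 17638 genes. At an unadjusted p under 0.05 there were 4 of the 68 (background 8.74%). Rpl13a and Rpl41 of the large subunit were among the 3 genes with the highest mean. Rpl41, one of the shortest proteins known, had 65.6, 61.6 and 65.9% at 24 h and 65.9, 60.2 and 51.2% at 0 h, and the groups overlap. Rpl13a had 96.8, 72.9 and 77.4% at 24 h and 25.4, 62.3 and 49.5% at 0 h, with separate groups and a limma adjusted p of 0.534.

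At 24 h the Suz12 and Ring1B peaks at ribosomal protein genes lay mostly inside the H3K27ac peaks. Of the bases in the 77 regions covered by Ring1B in at least 2 of 3 libraries, 93.7% were also covered by H3K27ac in at least 2 of 3, against 51.7% over all protein-coding genes. For Suz12 the shares were 91.5% and 25.8%. H3K27me3, present in at least 3 of 4 libraries, covered 7.13% of the Suz12 bases at ribosomal protein genes and 59.2% over all genes. Wide H3K27ac cover at these genes sets much of the overlap, and no test was made of these shares. Across the 77 genes the mean covers of H3K27ac and Ring1B at 24 h had a Spearman rho of 0.633, a description over genes whose values come from the same cells and the same allele.

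H2AK119Ub was rare at ribosomal protein genes before 24 h. It was present at 3, 4, 4 and 3 genes at 0 h, at 15, 13 and 7 at 12 h, and at 43, 21, 20, 17 and 34 at 24 h. The mean cover was 1.51 ± 0.285% at 0 h (n = 4), 4.60 ± 2.44% at 12 h (n = 3) and 18.9 ± 11.9% at 24 h (SD, n = 5), against 3.08, 10.2 and 12.9% over all protein-coding genes. As relative cover, the libraries ranged between 0.760 and 1.51 at 0 h, 0.450 and 1.12 at 12 h, and 2.37 and 4.19 at 24 h. All 24 h libraries stood above all earlier ones on that scale, and the mean over all genes was 1.96, 1.97 and 2.49. Over all genes the 24 h libraries, at 2.256 to 2.92, also stood above all earlier ones. Those lay between 1.828 and 2.109 at 0 h and between 1.864 and 2.078 at 12 h. The higher mean at 24 h came mainly from replicates 1 and 5, with 36.2 and 26.6% against 9.33 to 11.6% in the other 3. The share of genes with any peak went the other way in 4 of the 5 libraries: it was 55.8, 27.3, 26.0, 22.1 and 44.2% of the ribosomal protein genes, against 51.9, 36.6, 36.2, 26.1 and 46.8% of all protein-coding genes. A peak in every 24 h library was found at 11.7% of ribosomal protein genes and 22% of all genes, and the median library covered 12.3% of ribosomal protein start sites and 24.5% of all start sites.

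Of the 77 genes, 28 were tested and 8 (28.6%) changed, against 33.2% of 13842 genes, so the share called was near the background. All 8 were higher at 24 h than at 0 h (background 31%) and higher at 24 h than at 12 h (background 10.2%). They include Rpl13a and Rpl19 of the large subunit and Rps18, Rps19, Rps21 and Rps27l of the small subunit. The regions of 2 of the 8 overlap, so these are not separate measurements. In 4 genes every 24 h library lay above every 0 h library (background 29%), among them Rpl19, Rps18 and Rps27l. The number called was 6 to 10 when each library was left out in turn, 2 with the upper 50% of each list by highest signal, and 0 with lists of equal length.

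Rpl19, a large-subunit protein, had 0 in the 4 libraries at 0 h, 20.6, 5.95 and 0% at 12 h, and 98.9, 30.1, 82.4, 100 and 71.5% at 24 h. Its region also holds part of Cacnb1, a calcium channel subunit gene. The difference of 24 h minus 0 h was 76.6 ± 12.9 points (SE, limma adjusted p = 0.00254). Rps18, a protein of the small-subunit head, had 0 in the 4 libraries at 0 h, 13.4, 13.4 and 6.68% at 12 h, and 63.4, 41.9, 64.9, 52.1 and 75.4% at 24 h. That difference was 59.6 ± 7.33 points (limma adjusted p = 0.000407). Parts of B3galt4 and Vps52 also lie in the Rps18 region. Rps27l, a paralog of Rps27 known as a p53 target, had 0 in the 4 libraries at 0 h, 20.3, 45.7 and 12.6% at 12 h, and 67.5, 56.1, 59.9, 60.3 and 60.5% at 24 h. Its groups at 0, 12 and 24 h were all separate (difference of 24 h minus 0 h 60.9 ± 7.43 points, limma adjusted p = 0.000549).

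Rps21, whose region also holds part of Cables2, was called although 24 h replicate 4 had no peak there. It had no peak at 0 or 12 h, and 79.1, 83.9, 58.5, 0 and 85.8% at 24 h. That library has the shortest 24 h list, of 10964 peaks against up to 24635. Of the bases covered by H2AK119Ub in at least 3 of 5 libraries at 24 h at ribosomal protein genes, 59.4% were also covered by H3K27ac in at least 2 of 3 libraries, against 18.0% over all genes. H3K27ac already took up 67.3% of these regions on average, so the share is no excess. Of the H3K27ac bases, 12.2% were covered by H2AK119Ub at ribosomal protein genes and 17.6% over all genes. These are separate libraries of many cells, so marks on the same and on different chromosomes cannot be told apart.

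**Figure D4:**
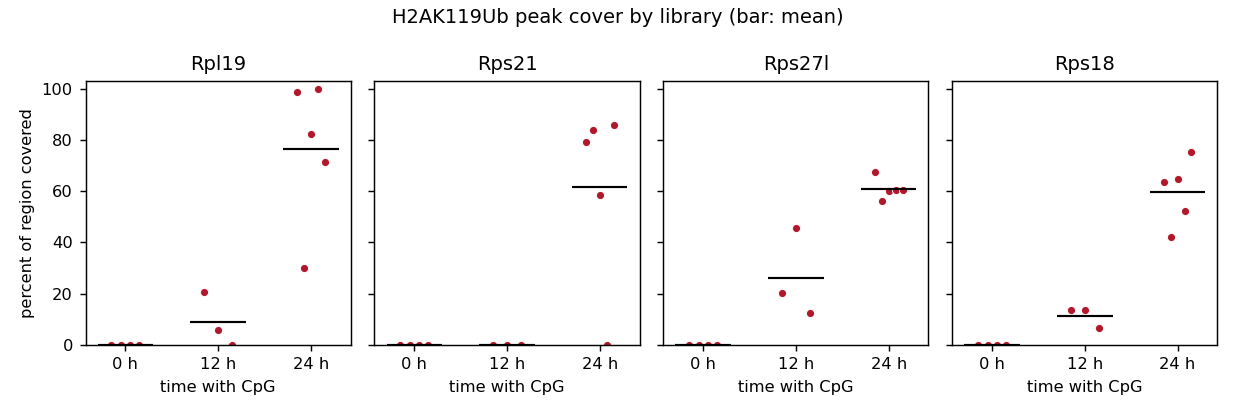
Percent of the region covered by H2AK119Ub peaks (vertical axis) at 0, 12 and 24 h, one point per library and bars for the mean, for 4 of the genes called higher at 24 h. All 0 h libraries are at 0, and the 24 h libraries of Rpl19, Rps27l and Rps18 lie above all others, while Rps21 has 1 library at 0.

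H3K27me3 touched few ribosomal protein genes. It was present at 2, 2 and 4 at 0 h, 4, 4 and 5 at 12 h, and 11, 7, 14 and 14 at 24 h, and 60 of the 77 had no H3K27me3 peak in any library. The mean cover was 3.41 ± 1.13% at 24 h (SD, n = 4) against 0.573 ± 0.297% at 0 h (n = 3), and over all protein-coding genes it was 14.5 ± 2.12% and 4.42 ± 2.83%. As relative cover it lay between 0.257 and 0.488 at 24 h and between 0.238 and 0.372 at 0 h, and these ranges overlap.

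Of the 77, 9 genes were tested and 5 changed (background 56.9%), all higher at 24 h than at 0 h (background 56.5%). They were Rpl5, Rpl17, Rpl26, Rpl34 and Rpl35a, all of the large subunit. With 1 library left out, 2 genes passed without 0 h replicate 2, 4 without 0 h replicate 3 and 3 without each of the other 8. None passed with lists of equal length. Rpl26, which in human cells binds p53 mRNA, had no peak at 0 or 12 h and 29.6, 40.5, 37.7 and 41.3% at 24 h, a difference of 37.3 ± 4.00 points (SE, limma adjusted p = 0.000188). Rpl17, on chromosome 18, had 42.3, 36.2, 49.9 and 36.2% at 24 h and 28.2, 12.8 and 20.1% at 0 h (limma adjusted p = 0.0402). Its difference had the opposite sign as relative cover, where it did not pass. Rpl34 had 44.7, 0, 37.7 and 27.4% at 24 h and none at 0 h, so 1 library at 24 h equals those at 0 h. Rpl5 had 13.1, 14.6, 11.6 and 15.4% at 24 h and none at 0 h, and Rpl35a had 10.4, 17.6, 11.1 and 10.9% at 24 h and none at 0 h, so both have separate groups.

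At 24 h there were 48 H3K27me3 peaks at 17 genes, summed over libraries. All but 1 ran past an end of the region, but the median H3K27me3 peak was 7274 to 8619 bases wide in these libraries, so most overlapping peaks would do so at regions of this size. None covered a whole gene, and 9 of the 17 genes had no H3K27me3 base within the gene itself in any library. At Rpl26 the block came from upstream and ended 61, 823, 629 and 879 bases past the start site printed above. At Rpl5, which with Rpl11 binds the p53 regulator Mdm2, it ended 389, 201, 571 and 101 bases before the start. At Rpl35a it ended 1197, 641, 1143 and 1156 bases before the start, over a flank shared with Iqcg, and at Rps18 it ended 973, 973, 1485 and 881 bases before the start, on the side of Vps52. The ends of the blocks thus lay within 1500 bases of the start in all 4 libraries at each of these 4 genes, which were chosen out of the 17. A block from upstream that stopped before the gene was counted only if it ended within the flank of 2000 bases. The closeness at Rpl5, Rpl35a and Rps18 is therefore largely set by the region, and no conclusion is drawn from it. At other genes, ends before the start lay from 128 bases (Rps3, replicate 3) to 1993 bases (Rps6, replicate 1) away.

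**Figure D5:**
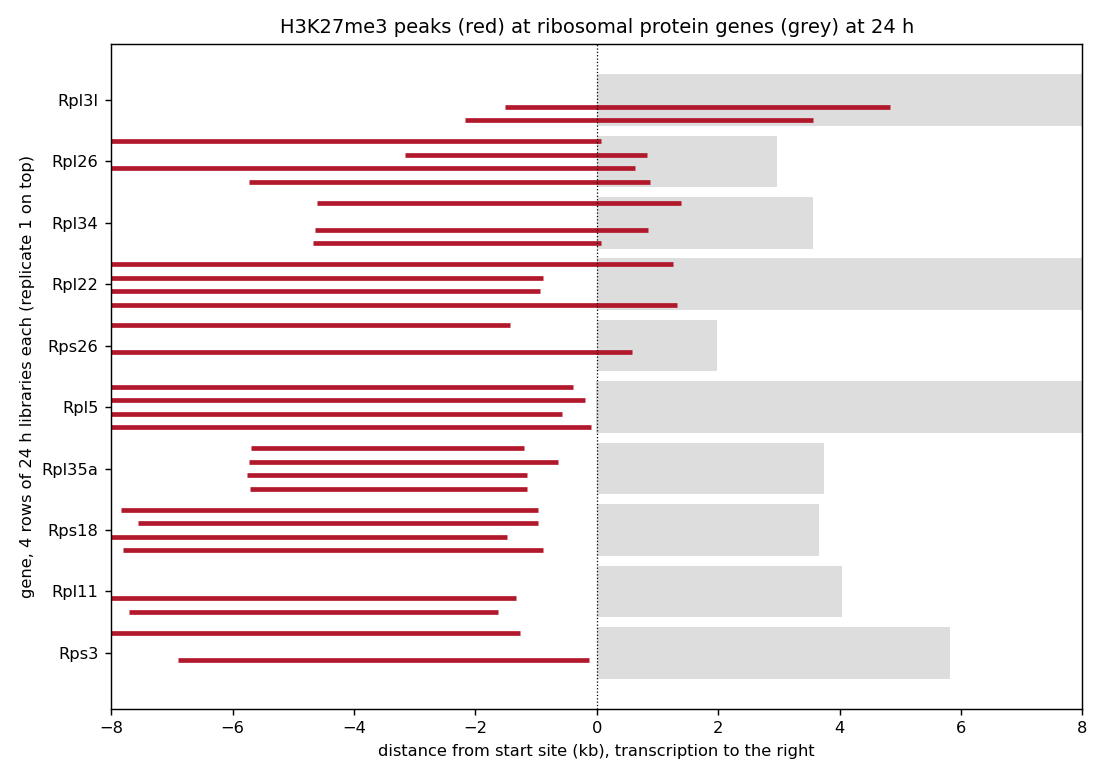
H3K27me3 peaks (lines) at 24 h in the 4 libraries at 10 ribosomal protein genes (shaded), by distance from the start site in kb with transcription to the right. Within this window peaks at the drawn genes enter from upstream and end before the start or at most 1381 bases past it. The exception is Rpl3l, where peaks in 2 libraries lie over the start and the gene. Rpl38, Rps6 and Rps27l also have a start site and a peak but are not drawn. At Rpl38 the peak, in replicate 4, came from downstream and began 5222 bases past the start.

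H3K9me3 was found at 1 of the 77 genes, Rpl10l. Peaks of this mark were rare over all protein-coding genes too. They were at 0.697 to 2.40% of these genes in the 0 h libraries and 5.36 to 6.37% in the 24 h libraries. Rpl10l, on chromosome 12, is an intronless paralog of the X-linked Rpl10 that is used in male germ cells. Of its region 0, 68.4, 0 and 0% was covered at 0 h, 94.1, 98.1, 89.8 and 100% at 12 h, and 97.4, 85.9, 100 and 97.6% at 24 h. The difference of 24 h minus 0 h was 78.1 ± 14.3 points (SE, limma adjusted p = 0.00204, with 52.3% of 2332 genes changing). The 0 h library with the peak, replicate 2, has the longest 0 h list, of 8899 peaks against 1775, 5792 and 3724. As relative cover Rpl10l did not pass. At 24 h the peak spanned the whole gene in all 4 libraries, and its width was 7518 to 25862 bases. Rpl10l had no peak of the other 5 antibodies in any library.

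The other paralogs differed from Rpl10l. Rpl3l, the form of Rpl3 used in striated muscle, had H3K27me3 over 51.5 and 45.2% of its region in 24 h replicates 3 and 4 and none in the other 8 libraries. Its H2AK119Ub was 0 at 0 h, 56.0, 0 and 0% at 12 h and 82.8, 0, 80.0, 0 and 67.0% at 24 h, and it did not pass for that mark (limma adjusted p = 0.164). Its H3K27ac was 0 at 0 and 12 h and 1.97, 18.7 and 1.31% at 24 h, and that region also holds the neighbour Msrb1. Rps27l had H3K27ac over 49.1, 28.9 and 45.1% at 24 h and 0 at 0 h (limma adjusted p = 0.0704), besides its H2AK119Ub. Rpl39l, a form used in the testis, had no peak in any library. Rps4l is listed as a transcribed pseudogene and was not used here.

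The H3K27ac values were set beside those of other genes of protein synthesis, in lists put together with earlier results of these data known. The median over genes of mean H3K27ac cover at 24 h was 74.8% for ribosomal protein genes against 8.49% at 0 h. It was 43.2% for 21 translation factors with TOP mRNAs, 27.5% for 25 ribosome biogenesis factors, 17.5% for 15 RNA polymerase I subunits and factors, 12.2% for 78 mitochondrial ribosomal proteins and 6.33% for 20 cytosolic aminoacyl-tRNA synthetases. All of these lists, and all protein-coding genes, had a median of 0 at 0 h, and all protein-coding genes had 0 at 24 h too. Percent cover depends on the length of a region, and lengths were not matched between lists. At 24 h, 89.6% of ribosomal protein genes had a peak in every library. That share was 47.6% for translation factors, 56% for biogenesis factors, 46.7% for polymerase I, 24.4% for mitochondrial genes and 50% for synthetases. The other lists thus do not keep the order of their medians. The number called higher at 24 h was 0 of 18 tested translation factors, 1 of 21 biogenesis factors, 0 of 9 for polymerase I, 2 of 42 mitochondrial genes and 0 of 13 synthetases. Eef1a1, the elongation factor that brings tRNAs to the ribosome, had 86.2 ± 4.99% at 24 h and none at 0 h (SD, n = 3 each). Fau, which encodes a ribosomal protein fused to a ubiquitin-like protein, had 68.7 ± 22.0% at 24 h, against 5.53 ± 9.57% at 0 h (SD, n = 3 each).

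The labelled cell type was checked by H3K27ac. The 10 B cell markers had a median cover of 88.4% at 24 h against 48.1% at 0 h, and Cd79a, Cd79b, Ms4a1, Pax5, Ebf1 and Blk had a peak in all 9 libraries. Of 8 T cell markers, Cd3e, Cd4, Cd8a, Cd2 and Cd28 had none, Cd3d had 41.6% at 24 h against 34.4% at 0 h, Lck 12.7% against 12.4%, and Cd3g 1.79% against 0%. Of 8 erythroid markers, Klf1 and Epor had a peak in 1 and 2 libraries, and the other 6, the haemoglobin genes among them, had none. Of 8 myeloid markers, Lyz2, Mpo and Cd14 had none and 5 had a peak in 1 to 6 libraries: at 24 h Cd68 had 14.0%, Csf1r 12.1%, Itgam 8.24% and Adgre1 3.37%, against 0, 0, 0 and 1.82% at 0 h, and Csf3r had a peak at 12 h alone. The part of other cells in the results was not tested. Of 6 plasma cell markers, Jchain and Sdc1 had none. At 24 h Xbp1 had 84.4%, Irf4 45.8%, Tnfrsf17 34.5% and Prdm1 4.53%, against 0, 22.7, 0 and 0% at 0 h. In bulk libraries a change in the share of cells with a mark cannot be told apart from a change within each cell.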

How the data were processed

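The peak lists of 61 libraries, 1 per library and called separately, were read as deposited. Per the names of the files the authors deposited, peaks were called with SEACR from reads assigned to Cast, with the settings norm and relaxed for the 4 histone marks and a stringent top share of 0.01 for Suz12 and Ring1B. The signal columns, deposited by the authors as the summed and highest coverage of a peak, were used only to rank peaks within a list. Build mm10 and the tools Trimmomatic 0.32, Bowtie2 2.3.4.1, Picard and deepTools 3.5.1 are named in the submitters' processing notes. Not given in the sources used here were the SEACR version, the rule that assigned reads to an allele and the treatment of reads that also match ribosomal protein pseudogenes. Sequencing depth is unknown, so no counting interval is given.

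For each protein-coding or lncRNA gene on chromosomes 1 to 19 and X of the RefSeq table (GRCm38.p6), the percent of the gene with 2000 bases on each side that merged peaks cover was computed. Genes with a peak in at least 3 libraries of an antibody were fitted with limma 3.58.1 in R 4.3.3 (trend and robust options, all libraries of the antibody), with an F-test over the 3 times and Benjamini-Hochberg adjustment over all genes tested at 0.05. A gene past it was called higher or lower between 2 times at a contrast p under 0.05. The fit was also run on simulated data with normal noise and known shifts. The real values hold many exact zeros, so no support for the calls is drawn from that run. Other steps used Python 3.11.15, numpy 2.4.6, pandas 2.3.3 and matplotlib 3.10.9.

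The labels call replicates biological and tie no numbers to animals. Same-numbered libraries did not deviate together (correlations between -0.214 and 0.0819 over 58 pairs), and no 2 lists of a group shared more than 0.829% of their peaks exactly. The ribosomal protein genes and the other lists were chosen with earlier results of these data known. Genes were named by rule: stalk genes, Rpsa and paralogs; up to 5 called per antibody with the largest difference of 24 h minus 0 h; the 3 highest where none passed; the 3 highest and lowest for H3K27ac; and the 3 highest for H3K27me3 at 24 h. Some genes that the rule takes in are not reported here. Start sites of 57 genes came from the RefSeq promoter table. Of these, 47 lie at an end of the gene record, and 7 lie over 100 bases from it.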

Additional observations from a re-analysis of the deposited data

Results flagged for a closer look

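In groups of 4 or 5 libraries, 24 sets of values for the counts, means and named genes were examined for a library far from the rest, and 4 were found. Chance flags about 1 in 20 such sets. For H3K27me3 at 24 h, replicate 2 had 17.6% of the Rpl35a region covered, against 10.4, 11.1 and 10.9% in the other libraries. The other 3 are 1 event, since H3K9me3 at ribosomal protein genes is Rpl10l alone. At 0 h, replicate 2 had 1 ribosomal protein gene with a peak and the other 3 libraries had 0. Its mean cover of the 77 genes was 0.888% and its cover of Rpl10l 68.4%, against 0 in the others. Without this library the other 0 h libraries have no H3K9me3 peak at Rpl10l, and the gene still passed (limma, 1 of 1).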

How the results depend on the processing

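With H3K27ac, 14 genes were called changed and higher at 24 h. The count was 0 with the replicate block, 0 after division by the covered share of the autosomes, 4 with the upper 50% of each list by highest signal, 2 with lists of equal length, and 0 to 21 when each library was left out. With H2AK119Ub it was 8, and 2 with the upper 50% of each list, 0 with lists of equal length, 3 within 1 kb of the start site (added after the data were seen), and 6 to 10 with a library left out. With H3K27me3 it was 5, and 2 with the replicate block, 3 with genes listed in at least 1 library, 1 after division, 0 with lists of equal length, 2 for the gene body alone, 2 within 1 kb of the start, and 2 to 4 with a library left out. H3K9me3 gave 1, and 0 after division. Lists of equal length left no H3K9me3 value to test. With the upper 50% of each list, Suz12 gave 2 changed, both lower at 24 h, and Ring1B gave 1, higher at 24 h. Ring1B also gave 1 for the gene body alone. The causes were not tested. The replicate number pairs no animals in the labels. For named genes under the alternatives, 182 values stayed on the same side of the threshold, 72 lost the call and 1 reversed, namely Rpl17 for H3K27me3, with -8.44 after division. No depth is known, so a missing peak is not evidence of absence.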

Other observations

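The 4 X-linked genes that match the symbols lie outside the autosomal set. The mothers carried a heterozygous Xist deletion and only the Cast X was read, so no chromatin state is read from these genes. Rpl39, Rpl10 and Rpl36a had no peak of any antibody in the 61 libraries. Rps4x had H2AK119Ub over 47.8% of its region in 1 of the 5 libraries at 24 h and no other peak. Among genes outside the set, Npm1, a nucleolar chaperone of ribosome assembly, had H3K27me3 in all 4 libraries at 24 h, with a mean cover of 17.8 ± 9.93% (SD), and none at 0 h. The elongation factor Eef2 had Ring1B at 42.4 ± 19.8% at 24 h and 52.5 ± 33.5% at 0 h (SD, n = 3 each), with a peak in every library.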
